A study of Rattus norvegicus with 20 samples.

Results

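The isolated islands are 555 short CpG island regions of the rat autosomes that lie far from every other region on the array. A region was a run of 3 to 14 probes in which each probe started at most 500 bases after the one before, and a run counted as isolated when no other run of any size lay within 250000 bases on either side. They made up 4.37% of the 12707 autosomal runs of that size and were chosen by probe position alone, so no measured value entered the choice. Of the 555, 550 kept at least 3 probes after filtering and were tested, and 12069 other autosomal runs of 3 to 14 probes served as the comparison. Isolation here means distance on the array, and islands that the array leaves out do not count.

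CpG islands are stretches of DNA rich in the dinucleotide CG, and most of them are free of cytosine methylation in normal tissue. Many lie at gene starts, where dense methylation accompanies silencing, while others lie between or inside genes. In carcinomas, a subset of islands gains methylation, a pattern widely described in mammary and other tumours.

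DNA methylation was measured in normal mammary glands (4 samples) and mammary carcinomas (16 samples) from female F1 hybrids between Sprague-Dawley and Copenhagen rats. The series calls the carcinomas radiation-induced, and its protocol names 4 Gy of 137Cs gamma rays to the whole body at 0.5 Gy per minute and 7 weeks of age, or no treatment. The sources used here do not state if the normal glands were irradiated, and an effect of irradiation and an effect of the carcinoma cannot be told apart. On each 2-colour Agilent array, Cy5 marked the DNA fraction pulled down by a protein domain that binds methylated CpG, and Cy3 marked the unselected input DNA of that tissue. Both groups are bulk tissue, in which a mixture of cells with high and low methylation cannot be told apart from one intermediate level. No label ties a sample to an animal, and the p-values therefore reflect only how far these samples spread, which may in part be technical.

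Values are log2 ratios of Cy5 to Cy3, averaged over the probes of a region, with each array's median set to 0. A high ratio marks a methylated region. Median raw Cy5 signals per array were 62 to 96 units in the normal glands and 63 to 128.5 in the carcinomas. The span from the low to the high mode of regions on an array was 4.33 to 6.46 log2 units in the normal glands and 2.32 to 4.20 in the carcinomas, with no overlap. For this reason a second scale was used beside log2, called linear position, which is 0 at the low mode and 1 at the high mode of the same array on the unlogged ratio. It assumes that the ratio is linear in methylation between these modes, which could not be checked in these files. A position under 0.2 does not show that methylation was absent: chr7:51326605-51327223, under 0.2 in every normal gland, had log2 ratios of 1.47 to 2.94 there. For carcinomas 7 and 8 the label code and the scanner code disagree, and the deposited assignment of array to sample was kept. No gene names accompany the probes, so regions are given by their coordinates in build rn4.

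The isolated islands were small and sparse. They held 3449 probes, and a tested region typically held 6 of them (median) over 611.5 bases. The median distance to the nearest run was 401679 bases, 57 islands lay over 1000000 bases from any run, and 8 had a run on one side only because they were the first or last of their chromosome. Their share differed between chromosomes. Isolated islands made up 9.15% of the runs on chromosome 2, 8.93% on chromosome 13 and 8.03% on chromosome 4, against 0.630% on chromosome 12 and 1.09% on chromosome 10. The most remote was the 9-probe region chr13:331803-332961, at 10356035 bases from its only neighbour.

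Isolated islands carried slightly more methylation signal than the other islands, on every array. Their median log2 ratio was 0.26, 0.23, 0.11 and 0.13 in normal glands 1 to 4, and the median of the other islands was -0.26, -0.12, -0.17 and -0.13. In the carcinomas the isolated median ran from 0.03 through a middle value of 0.15 to 0.31. The isolated median lay above the other median on 20 of 20 arrays, by 0.35 ± 0.12 (SD, n = 4) in the normal glands and 0.31 ± 0.11 (SD, n = 16) in the carcinomas. The mean difference over all arrays was 0.32 (two-sided exact sign-flip permutation test over arrays, p = 1.9e-06, the smallest this test can give). Over the normal glands alone the same test cannot go below 0.125, the value it gave. The gap between isolated and other islands did not differ detectably between groups, at -0.04 for carcinomas minus normal glands (two-sided exact permutation test, p = 0.493). On the linear scale this change was 0.0285, in the opposite direction, and passed the test (exact permutation p = 0.00289).

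**Figure D1:**
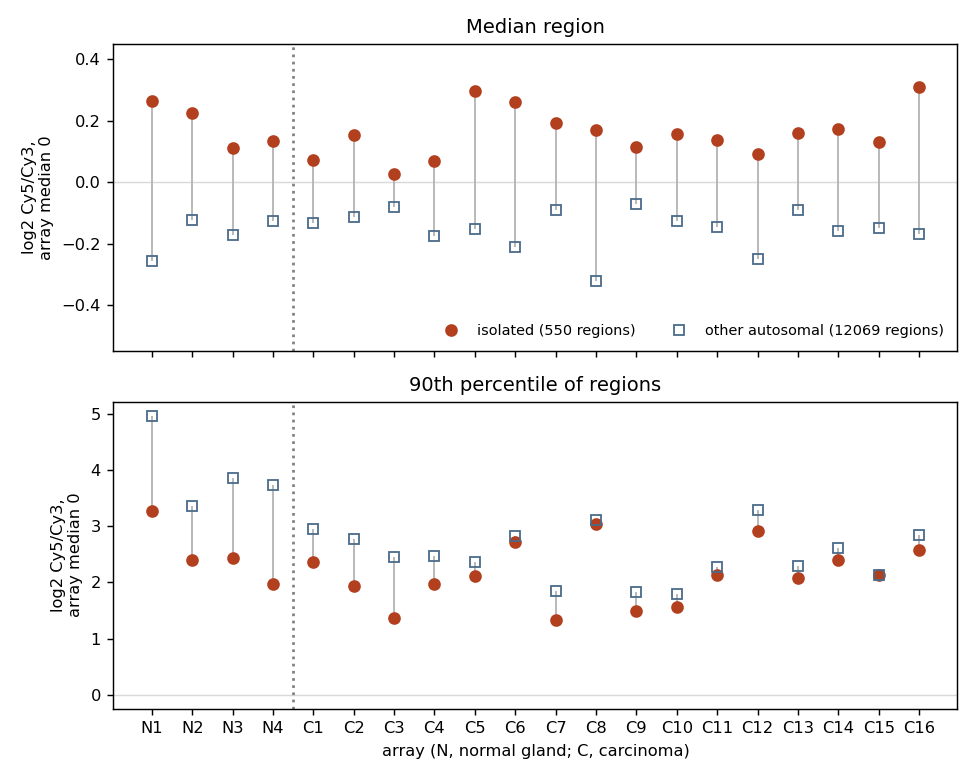
Log2 Cy5/Cy3 ratio (array median 0, vertical axis) of the median region and of the 90th percentile of regions on each of 20 arrays, with isolated islands as filled circles and other autosomal islands as open squares. The isolated median is above the other median on every array, while the isolated 90th percentile is below the other one on 19 of 20 arrays and the gap is wider in the normal glands.

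The excess lay in the enriched channel. The median Cy5 signal of isolated islands exceeded that of the others by 0.36 ± 0.12 log2 units in the normal glands and 0.30 ± 0.14 in the carcinomas. Their input signal was slightly lower, by -0.04 ± 0.02 and -0.06 ± 0.03. The input difference was far smaller than the ratio difference and did not change detectably between groups (-0.02, exact permutation p = 0.232). The share of probes with Cy5 well above background lay between 72.7% and 98.4% per array among isolated islands, so part of the lowest ratios rest on dim signals.

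The upper end of the distribution went the other way. In the normal glands the 90th percentile of the isolated islands was 2.52 ± 0.55, and that of the other islands was 3.98 ± 0.69. The difference was -1.46 ± 0.36 in the normal glands (n = 4) and -0.36 ± 0.29 in the carcinomas (n = 16). It was smaller in size in 15 of 16 carcinomas than in every normal gland (change 1.11, two-sided exact permutation p = 0.000413). The change was 0.97 among arrays of scan day 2 and 1.36 among those of scan day 3, each at the smallest p such a day allows (exact permutation p = 0.0357 and 0.0222). The span of the arrays narrowed in the same direction, and its part in this change was not tested.

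Most isolated islands lay in the lower part of the range in the normal glands. In linear position, 471 of 550 (85.6%) lay under 0.2 in every normal gland, 39 (7.09%) lay over 0.5 in every normal gland and 40 (7.27%) fit neither class. For the other islands the shares were 83.2%, 9.96% and 6.82%. Within the low class, the isolated islands started somewhat higher, with a median normal position of 0.0120 against 0.00285.

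The level was not evenly spread over chromosomes. The isolated median exceeded the median of the other islands on all 20 arrays for chromosomes 1, 3, 4, 5, 8, 10, 11, 12, 13, 16 and 19. The medians of the 3 isolated islands of chromosome 12 and the 8 of chromosome 19 were high, at 4.51 ± 0.78 and 3.27 ± 0.46 log2 units in the normal glands. Not all of these islands were high. On average 66.7% and 50% of them lay over 0.5 in linear position in a normal gland, and 3 of the 8 on chromosome 19 lay under 0.2 in every normal gland. On chromosome 19 the regions chr19:42420464-42420804 and chr19:44881525-44881851 had mean normal levels of 4.36 and 4.27. Chromosome 14 was the exception among the autosomes, since its 10 isolated islands lay below the others on 19 of 20 arrays, by -0.08 ± 0.07 in the normal glands. The size of the run mattered less: the excess in the normal glands was 0.28 for runs of 3 to 5 probes, 0.45 for 6 to 9 and 0.27 for 10 to 14, and it was positive on 20 arrays in each class.

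In the single-region test, few isolated islands rose. Of the 550, 53 (9.64%) were higher in carcinomas in log2 ratio at an adjusted p under 0.05, against a background of 11.6% of all 13554 regions tested and 12.1% of the other autosomal islands. A further 94 (17.1%) were lower, against 23.7% of all regions and 22.0% of the other islands. The median change was 0.06 for isolated and 0.03 for other islands. Every carcinoma lay above every normal gland in 5 isolated islands (0.909%, against 1.74% of all regions and 1.83% of the other islands) and below in 54 (9.82%, against 15.6% and 14.0%). These shares were not above those of all regions. The count of higher islands depended on single normal glands, falling to 5.09% without normal gland 1 or without normal gland 3.

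All 39 islands that were over 0.5 in every normal gland were called lower in log2, as were all 1202 such islands among the others, and their median change was -1.90 and -1.95. On linear position the same 39 moved by a median of 0.03, with 6 called lower and 5 (12.8%) higher. Of the 1202 others, 177 were called lower and 213 (17.7%) higher in position. The change in log2 moved with the narrower span of the carcinoma arrays, and how much of it is methylation was not tested. The other lower calls lay below that level: 48 were in the low class and 7 in the intermediate class. Of the 471 low islands, 53 (11.3%) were higher and 48 (10.2%) lower in log2, against 14.6% and 9.58% of the 10044 other low islands. Of the 40 intermediate islands, 7 (17.5%) were lower in log2 and 27 (67.5%) higher in linear position, against 59.8% and 51.6% of the 823 other intermediate islands, and these differences were not tested.

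The named falls were not alike in linear position. The region chr16:9580141-9580519 had log2 ratios of 6.82, 4.49, 5.29 and 4.97 in normal glands 1 to 4, and from 2.08 through a median of 3.17 to 4.02 in the carcinomas. It was the highest of the isolated islands in the normal glands, and each of the 16 carcinomas fell below the lowest normal gland. The change was -2.36 ± 0.34 (SE; limma, adjusted p = 1.95e-05), and its linear position was also lower, by -0.405 ± 0.0734 (SE; limma, adjusted p = 0.00105), with values over 1 in every sample. The region chr13:69755939-69756393 had ratios of 5.80, 3.66, 4.42 and 4.36 in the normal glands and of 1.21, 2.30 and 3.35 as the lowest, median and highest carcinoma. Its groups did not overlap in log2 (change -2.23 ± 0.35, limma adjusted p = 2.54e-05). In linear position its normal glands lay between 0.831 and 1.00, and the carcinomas spread from 0.218 to 1.14, without passing the test (limma adjusted p = 0.273).

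The other 6 of the 8 largest falls were chr2:123598827-123599334, chr4:172723127-172723713, chr2:125100736-125101143, chr9:68239693-68240533, chr4:127958786-127959408 and chr6:47899335-47899727. Their log2 changes lay between -2.15 and -2.05, with no overlap between the groups in any of them. Under loess within each array, 7 of these 8 falls changed sign, and the remaining one, on chromosome 9, no longer passed the test. In linear position the mean changes of these other 6 ran from -0.174 on chromosome 2 to -0.0657 on chromosome 6. All but the one on chromosome 6 also passed the test as lower in position (limma adjusted p from 0.00268 to 0.0444). The one on chromosome 6 did not (limma adjusted p = 0.133).

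The largest rises started from a low ratio. The 5-probe region chr2:48522446-48522828 had log2 ratios of -0.35, -0.12, -0.14 and -0.57 in the normal glands and of -0.23, 1.29 and 2.30 as the lowest, median and highest carcinoma. It lay above every normal gland in 15 of 16 carcinomas, and 1 carcinoma stayed within their range. The change was 1.49 ± 0.35 (SE; limma, adjusted p = 0.00187), and carcinomas 8, 11 and 15 lay over 0.5 in linear position.

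The 8-probe region chr3:57818021-57818858 was at -0.05, 0.01, -0.18 and -0.29 in the normal glands, and at -0.02, 0.99 and 2.45 as the lowest, median and highest carcinoma. It was above every normal gland in 15 of 16 carcinomas (change 1.17 ± 0.28, limma adjusted p = 0.00226). The 9-probe region chr1:222725179-222725942 was at -0.20, 0.49, 0.11 and -0.30 in the normal glands and at -0.20, 1.04 and 1.96 in the carcinomas. It was above every normal gland in 14 of 16 carcinomas (change 1.08 ± 0.31, limma adjusted p = 0.00884). Of the 8 largest rises, these 3 kept their call under loess.

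The other largest rises were chr13:89569552-89570133, chr17:34555340-34555695, chr20:54581501-54582163, chr20:21124134-21124328 and chr3:124457095-124457518. Their log2 changes lay between 0.96 and 1.09, and each passed the test in log2. The region chr20:21124134-21124328 had ratios from -2.10 to -1.12 in the normal glands and its mean linear position changed by 0.0186 without passing the test (limma adjusted p = 0.562), so its log2 rise lay within the low mode. The region chr20:54581501-54582163 had at most 4 of its 5 probes with Cy5 well above background on any carcinoma, and no carcinoma reached 0.5.

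**Figure D2:**
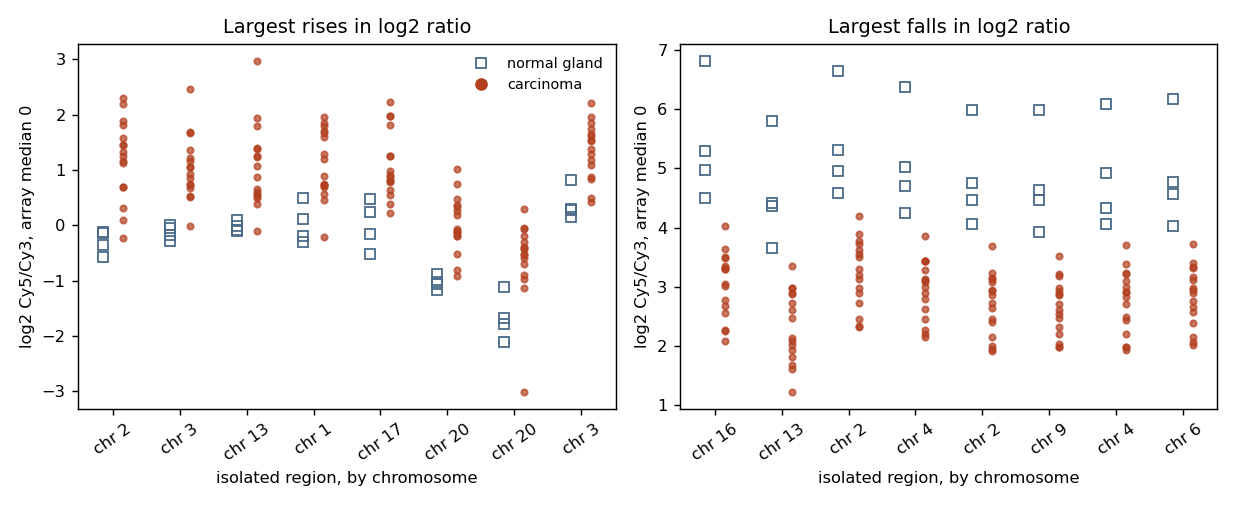
Log2 Cy5/Cy3 ratio (array median 0) of 8 isolated islands with the largest rises (left) and 8 with the largest falls (right) in carcinomas, labelled by chromosome, with normal glands as open squares and carcinomas as circles. The falls start at 3.66 or above in every normal gland and do not overlap the carcinomas, while the rises start at 0.83 or below and most spread widely over the carcinomas.

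On linear position the balance turned. Of the 550 isolated islands, 108 (19.6%) passed an adjusted p of 0.05 as higher in carcinomas and 11 (2.00%) as lower, against backgrounds of 17.1% and 4.48% of all regions and 16.7% and 4.47% of the other islands. Of the 108, 76 (70.4%) were under 0.2 in every normal gland, near the 68.4% among the other islands called higher and 66.7% among all regions called higher. There were 21 islands higher on both scales, 7 lower on both, and 11 lower in log2 but higher in position. Among the 12069 other islands these counts were 448, 236 and 419, and among all 13554 regions they were 495, 287 and 516. With 4 normal glands these counts were fragile: without normal glands 1, 2, 3 and 4 in turn, the share called higher was 5.27%, 10.9%, 7.09% and 6.73%, and the share called lower was 0.364%, 0.909%, 0.545% and 1.27%.

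The region chr7:51326605-51327223 had the largest position rise among islands low in every normal gland. Its position was 0.128, 0.189, 0.111 and 0.101 in the normal glands and 0.189, 0.749 and 1.21 as the lowest, median and highest carcinoma. It lay over 0.5 in 14 of 16 carcinomas (change 0.600 ± 0.149, SE; limma, adjusted p = 0.00937), although its log2 ratio did not pass the test (0.24, limma adjusted p = 0.636).

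The 9-probe region chr2:221093154-221093808 was at 0.0652, 0.147, 0.0581 and 0.0581 in the normal glands and at 0.293, 0.540 and 0.814 in the carcinomas. In position the groups did not overlap, and 12 of 16 carcinomas lay over 0.5 (change 0.469 ± 0.0685, limma adjusted p = 0.000141). In log2 the groups of this region overlapped, with 6 carcinomas above every normal gland, and the change of 0.56 did not pass the test (limma adjusted p = 0.130). The regions chr3:25035090-25035560 and chr8:86961242-86961589 each lay over 0.5 in 9 carcinomas, and chr11:66152957-66153450 in 7. The log2 change of the first of these, 0.69, did not pass the test (limma adjusted p = 0.161), while those of the other two did, at 0.95 and 0.82 (limma adjusted p = 0.0313 and 0.0305). Among these 5 islands, carcinomas 6, 8, 11, 15 and 16 were over 0.5 in every one.

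The share of isolated islands in the upper part of the range rose in the carcinomas. Islands over 0.5 made up 7.27%, 7.64%, 7.45% and 7.45% of the isolated set in the normal glands, and 7.64%, 15.6% and 34.7% as the lowest, median and highest carcinoma. All carcinomas but 1 lay above every normal gland, and the mean rose from 7.45% ± 0.15 to 17.2% ± 7.83 (difference 9.74 percentage points, two-sided exact permutation p = 0.0217). Among arrays of scan day 2 the difference was 13.2 points, and among those of scan day 3, 9.14 points (exact permutation p = 0.0714 and 0.0667). The other islands went from 11.1% to 16.9% (exact permutation p = 0.00372). The isolated share was thus 3.69 points below the other share in the normal glands and 0.307 points above it in the carcinomas, a change that did not pass the test (4.00 points, exact permutation p = 0.105).

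The intermediate part of the range filled more in isolated than in other islands. The share between 0.2 and 0.5 was 1.82%, 6.55%, 2.36% and 1.27% in the normal glands, and 4.00%, 15.9% and 24.2% as the lowest, median and highest carcinoma. It rose by 12.6 points in isolated islands and by 4.61 points in the others (two-sided exact permutation p = 0.000413 and 0.000826). The excess of isolated over other islands changed by 7.99 points (exact permutation p = 0.00124), by 7.88 within scan day 2 and by 9.04 within scan day 3 (exact permutation p = 0.143 and 0.0222). Normal gland 2, with the narrowest span of the normal glands, also had the highest intermediate share among them, and the part of the span in this excess was not tested.

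Gains from a low start were counted per carcinoma. An island gained when it lay under 0.2 in every normal gland and over 0.5 in the carcinoma. With each normal gland held out and the class set by the other 3, 0 of 471 to 492 isolated islands lay over 0.5 in the one held out. The count was also 0 for the other islands. In normal gland 2, 21 of 492 isolated and 155 of 10199 other islands lay at 0.2 or more. Every normal array had a wider span than every carcinoma array, so these counts cannot show how often a narrower span lifts a low island over 0.5. In the carcinomas, 155 of 471 isolated islands (32.9%) gained in at least 1 carcinoma, against 1469 of 10044 other islands (14.6%). Only 12 isolated islands (2.55%) gained in 8 or more carcinomas, against 2.27% of the others. Gain in a single carcinoma was seen in 50 of the 471 isolated and 452 of the 10044 other islands, a difference that was not tested.

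Gains differed greatly between carcinomas. Carcinoma 15 had 116 gained isolated islands (24.6%), carcinoma 8 had 82 (17.4%), carcinoma 11 had 77 (16.3%) and carcinoma 6 had 72 (15.3%). The shares of the other islands in these 4 were 10.1%, 8.98%, 7.23% and 5.87%. Carcinoma 2 had 0, carcinoma 3 had 1 and carcinoma 1 had 3. The span of the array was 4.00 log2 units in carcinoma 8, 2.59 in carcinoma 15 and 2.32 in carcinoma 9, which had 10 gained islands, and the part of the span in the gains was not tested.

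The isolated share exceeded the other share in 9 of 16 carcinomas, with a median excess of 1.03 points and a mean excess of 3.15 points (two-sided exact sign-flip permutation test over carcinomas, p = 0.00974). The excess was 5.06 points within scan day 2 and 2.59 points within scan day 3 (exact sign-flip p = 0.0625 and 0.195). The gained islands overlapped between carcinomas. Carcinomas 8 and 15 shared 66 islands, 80.5% of those of carcinoma 8 and 56.9% of those of carcinoma 15, and carcinomas 8 and 11 shared 60, 73.2% and 77.9% of theirs. The overlap of gains among the other islands is not given here.

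**Figure D3:**
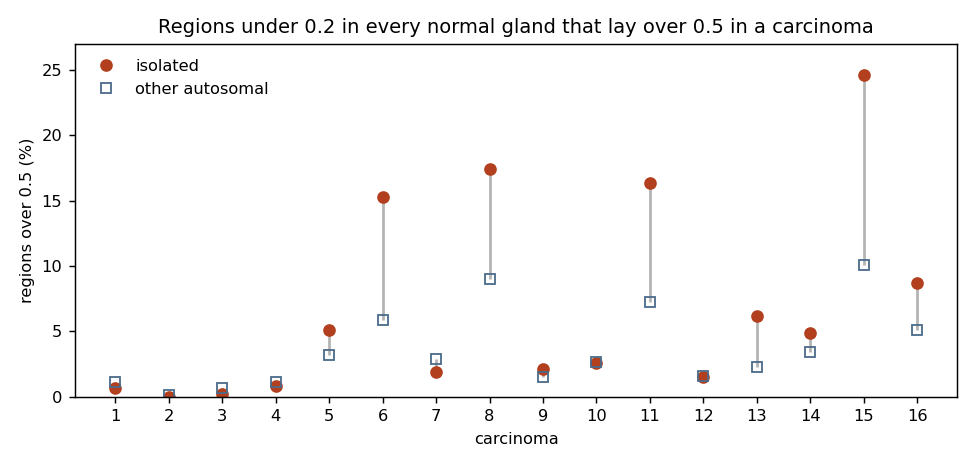
Percent of islands under 0.2 in every normal gland that lay over 0.5 in linear position in each of the 16 carcinomas, for 471 isolated islands (filled circles) and 10044 other autosomal islands (open squares). The share runs from 0% to 24.6% among isolated islands, and the widest gaps to the other islands are in carcinomas 15, 6, 11 and 8.

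The excess of gains moved with the starting level. Averaged over 5 bands of mean normal position, it was 0.506 points (exact sign-flip permutation over 16 carcinomas, p = 0.524), and it was positive in 5 of 16 carcinomas. Among islands under 0 in mean normal position, 0.144% of isolated and 0.101% of other islands lay over 0.5 in an average carcinoma. Between 0.02 and 0.05 the values were 7.87% and 7.19%, and between 0.05 and 0.1 they were 23.5% and 22.9%. The share of islands that gained in at least 1 carcinoma differed more within these bands, at 50.0% against 35.9% and 93.2% against 69.7%, which was not tested.

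**Figure D4:**
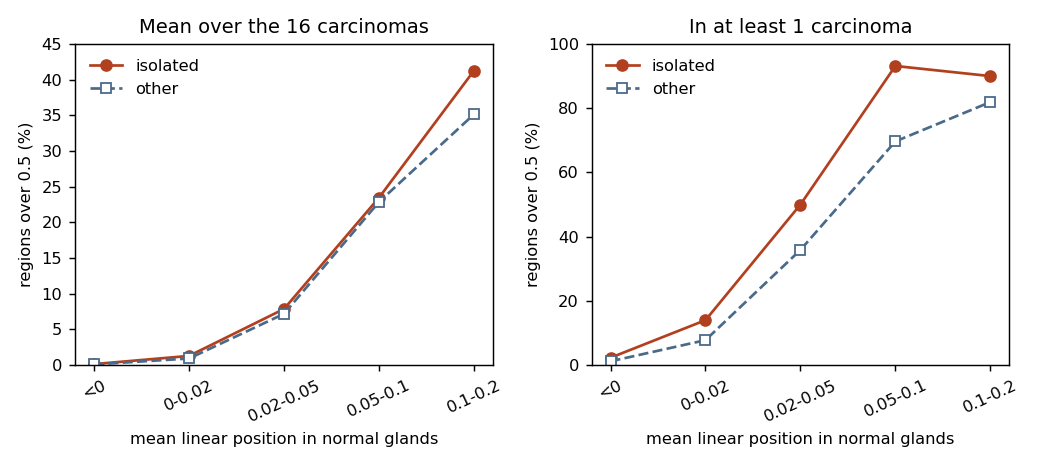
Percent of islands over 0.5 in linear position, averaged over the 16 carcinomas (left) and in at least 1 carcinoma (right), by mean linear position in the normal glands, for isolated (filled circles) and other islands (open squares) that were under 0.2 in every normal gland. Both curves rise with the starting level, from 0.144% to 41.3% on average for isolated islands, and the average curves nearly coincide below 0.1.

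None of the 39 isolated islands over 0.5 in every normal gland fell under 0.2 in any carcinoma. The lowest position any of them reached was 0.218, in chr13:69755939-69756393, which lay over 0.5 in 14 of 16 carcinomas. Among the other islands, 43 of 1202 (3.58%) fell under 0.2 in at least 1 carcinoma, a difference that was not tested.

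Distance to the nearest run did not order the islands simply. The median log2 ratio in the normal glands was 0.13 for islands 250000 to 500000 bases from the nearest run, 0.17 up to 1000000 bases and 0.78 beyond, and it was -0.25 for other islands between 5000 and 50000 bases. Islands within 5000 bases of another run, the most crowded, were at 0.00. The share gained in at least 1 carcinoma followed the same shape, with 23.0% within 5000 bases, 8.97% from 5000 to 50000, and 31.9%, 34.1% and 36.6% in the 3 isolated classes. Across the 550 isolated islands, distance correlated with normal level at a Spearman rho of 0.01 and with the change in position at 0.08. These are descriptions across islands of the same 20 arrays, not independent replicates.

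**Figure D5:**
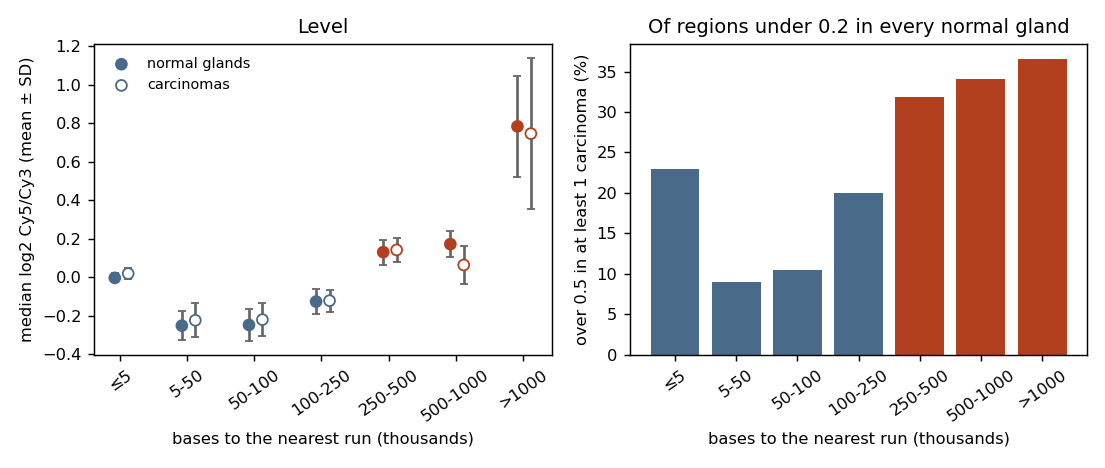
Median log2 Cy5/Cy3 of islands by distance to the nearest run (left; filled points normal glands, open points carcinomas, bars the SD over arrays) and percent of islands under 0.2 in every normal gland that lay over 0.5 in at least 1 carcinoma (right). Isolated classes are red and other autosomal islands blue; both measures are lowest between 5000 and 100000 bases and higher at either end.

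The most remote islands held no common level. In the normal glands the 5 farthest had mean log2 ratios of 1.43 (chr13:331803-332961), -0.67 (chr16:90013317-90013807), 2.44 (chr19:5685499-5686755), 0.52 (chr15:96403472-96404883) and 4.64 (chr6:15352346-15353388). The first lay at 0.0461, 0.157, 0.085 and 0.0619 in the normal glands and over 0.5 in 6 carcinomas, without passing the test in position (change 0.317, limma adjusted p = 0.0681). The region on chromosome 19 lay over 0.5 in 11 carcinomas and that on chromosome 6 in all 16, while those on chromosomes 16 and 15 did so in 0. The region on chromosome 6 was already at 0.929 to 1.05 in the normal glands. That on chromosome 19 was at 0.113 to 0.378 there, and its rise in position did not pass the test (limma adjusted p = 0.0508). Its log2 change was -0.52 (limma adjusted p = 0.233).

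The lowest isolated islands in the normal glands were chr4:32085981-32086403, chr16:37138517-37138708, chr20:21124134-21124328, chr11:15800151-15800303 and chr4:65392574-65393657, with means from -1.76 to -1.47. In the first and the second, a single probe had Cy5 well above background on any normal gland, so these levels rest on dim signals. Islands on either side of the distance limit had mixed levels. The islands just inside were chr16:9580141-9580519 at 5.40 ± 1.01 in the normal glands and chr14:97329299-97329956 at -0.36 ± 0.17, and chr2:241260220-241260700 was not tested. Those just outside were chr2:56666124-56666997 at 0.32 ± 0.16, chr10:49309172-49310177 at 0.25 ± 0.13 and chr2:218370640-218371521 at -0.30 ± 0.54.

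Isolated islands also varied more between carcinomas. The SD over the 16 carcinomas had a median of 0.445 log2 units across isolated islands and 0.309 across the others, while over the normal glands the medians were 0.268 and 0.253. The mean distance between pairs of arrays, taken as 1 minus the correlation over islands, rose from 0.0337 in the normal glands to 0.129 in the carcinomas for isolated islands (two-sided exact permutation p = 0.00826). For the other islands it rose from 0.0242 to 0.0788. The rise was larger for isolated islands by 0.0404 (exact permutation p = 0.0289), and their distance was already the larger one in the normal glands. Neither the SDs nor the distances were compared at equal starting level or at equal spread of levels across islands. The part of starting level and of that spread in these differences was not tested.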

How the data were processed

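Per the file headers, Agilent Feature Extraction 10.7.3.1 made the files of the 20 arrays, with probes placed in build rn4, and the deposited processed signals are intensities after background subtraction and linear dye normalization. The deposited log10 ratio sets Cy5 against Cy3, per the file headers, and the authors' value table holds it as log2. Here log2 of the processed ratio was centred on each array's median, after removing 1565 control spots and 187 outlier-marked values. A probe needed input signal above background on 10 or more arrays, which 91599 probes met. Group differences per region came from limma 3.58.1, run in R 4.3.3 (Benjamini-Hochberg over 13554 regions, call at 0.05), and single values per array with exact permutations over 4845 splits. Linear position took the mode of the highest 15% of regions as 1. In simulated data for the log2 comparison over 13554 regions, 28%, 74%, 92% and 98% of changes of 0.5, 1, 1.5 and 2 log2 units were recovered. Other steps used scipy 1.17.1, numpy 2.4.6, matplotlib 3.10.9 and pandas 2.3.3 under Python 3.11.15. Scan day 1 held 2 carcinomas, day 2 held 2 normal glands and 6 carcinomas, and day 3 held 2 and 8; none of 10 slides held both groups. Named regions were the 8 largest rises and falls past the threshold, the 5 highest and 5 lowest in normal glands, the 5 largest position rises from under 0.2, the 5 farthest, and 3 on each side of the distance limit. The members, lists and tests were chosen with earlier results of these data known. No gene or sequence was assigned, since no genome of this build was used here.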

Additional observations from a re-analysis of the deposited data

How the results depend on the processing

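The excess of the isolated median over the other islands stayed positive and past the test under each alternative run for it. In log2 it ran from 0.11 with a distance of 100000 bases to 0.35 with 500000, and from 0.31 to 0.33 with each array left out. Its size also moved with the processing: it was 0.12 with normexp, 0.17 with the mean over regions and 0.20 with loess, against 0.32 as reported. A block could not be applied to it, since it is a difference within an array. Its log2 change in carcinomas ran from -0.08 to 0.01 with each array left out. On linear position the change was 0.0285 (exact permutation p = 0.00289). The share called higher in log2 was 4.00% within scan day 2, 1.64% within day 3, 17.5% with array weights, 4.00% at an adjusted p under 0.01 and 4.00% with normexp. The share called lower was 9.64% within day 2, 6.55% with loess and 11.1% with quantile normalization. The split of higher against lower islands was 53 to 94 as reported, 71 to 36 with loess, 22 to 77 with normexp and 47 to 61 with quantile. In linear position the share higher was 2.36% within day 2, 1.45% within day 3, 53.5% with array weights, 4.91% at 0.01 and 34.2% with percentiles 10 and 95. The share lower was 1.03% at 500000 bases, 1.09% with probe medians, 3.09% with scan day as a block, 0% within day 2 (limma; 10 at an unadjusted p under 0.05), 0.182% within day 3, 1.27% with slide as a random block, 9.27% with array weights and 0.364% at 0.01. With each array left out, these shares ran from 5.09% to 13.6%, from 14.7% to 18%, from 5.27% to 25.3% and from 0.364% to 2.36%.

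Deviations of same-numbered samples correlated at 0.34, -0.29, 0.10 and -0.04, which cannot show if the numbers pair the samples. The labels do not state this either. With the replicate block, limma called 0% either way in linear position (110 higher and 30 lower at an unadjusted p under 0.05), the rise of the share over 0.5 was 1.59 points (exact sign-flip p = 0.125) and the change of the median excess was -0.15; only numbers held by both groups entered. The rise of the share over 0.5 was 13.2 points within day 2 and 9.14 within day 3 (exact permutation p = 0.0714 and 0.0667), and ran from 8.57 to 10.4 with each array left out. Its excess over the other islands passed the test at 500000 bases (6.82 points), with 5 to 14 probes (5.21), on the log scale (10.0) and over 0.3 (9.22). The other alternatives did not pass, among them 0.579 points at 100000 bases (exact permutation p = 0.651) and -0.288 with the replicate block (exact sign-flip p = 0.5). With each array left out this excess ran from 3.27 to 4.37. The change of the input difference in carcinomas ran from -0.03 to -0.02 with each array left out. It was -0.0387 with the replicate block and -0.00443 within day 2, and it did not pass the test under any alternative. Alternatives for gains and edges were chosen after seeing the data. The gain excess was 1.31 points with gain set as over 1 log2 unit above the highest normal gland, 7.65 at a position over 0.3, 1.40 at 100000 bases, 0.506 over bands of starting level, 5.06 within day 2 and 2.59 within day 3, and ran from 2.39 to 4.23 with each array left out. The edge change was 0.0552 with loess, 0.0315 with normexp and 0.243 within day 2, against 0.266 to 0.337 with each array left out. Its excess over other islands was -0.0120 with loess, -0.0028 with normexp and 0.0539 within day 2, against 0.0481 to 0.0866. Under loess the named falls became 0.25 (chr16:9580141-9580519), 0.14 (chr13:69755939-69756393), 0.53 (chr2:123598827-123599334), 0.18 (chr4:172723127-172723713), 0.56 (chr2:125100736-125101143), 0.11 (chr4:127958786-127959408) and 0.39 (chr6:47899335-47899727). The cause of these changes was not tested. Within a scan day fewer arrays entered, and dim Cy5 signals limit the order of low ratios.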

Other observations

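Within isolated islands the outer probes were lower than the inner ones in normal glands, and less so in carcinomas. Over the 373 isolated islands with at least 5 kept probes, the median difference of the first and last probes from the inner probes was -0.44 ± 0.09 log2 units in the normal glands and -0.14 ± 0.09 in the carcinomas, and all 16 carcinomas lay above every normal gland (change 0.30, two-sided exact permutation p = 0.000206, the smallest this test can give). In 8084 other islands the values were -0.30 ± 0.04 and -0.06 ± 0.09. The outer deficit was deeper in isolated islands on 20 of 20 arrays, by -0.14 ± 0.05 in the normal glands and -0.07 ± 0.04 in the carcinomas. The change was not past the test under loess or normexp, where the outer minus inner difference in the normal glands was itself 0.11 and -0.03.

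On chromosome 10, 8 of 9 low isolated islands gained in at least 1 carcinoma, against 9.85% of its other low islands. On chromosome 14, 0 of 9 did, against 18.9% of its other low islands. In an average carcinoma the shares were 10.4% against 2.07% on chromosome 10 and 0% against 4.95% on chromosome 14. Over islands of all classes, the isolated median in the normal glands was 1.08 log2 units on chromosome 10 and -0.21 on chromosome 14. The other islands were at -0.21 and -0.13, and the part of starting level in these shares was not tested. These chromosomes were picked after their values were seen and were not tested.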
